A study of Homo sapiens with 6 samples.

Results

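The aminoacyl-tRNA synthetase genes were examined in HEC-1-A, an established line of human endometrial adenocarcinoma cells, with and without SMIP34, a small molecule inhibitor of the protein PELP1. Members were chosen by gene symbol alone: 1 letter for the amino acid followed by ARS, with a closing 2 for the mitochondrial enzyme, plus FARSA, FARSB and EPRS. This gave 37 of the 23228 genes in the count tables, of which 20 encode cytosolic enzymes and 17 encode mitochondrial ones. GARS and KARS, whose genes supply both compartments, were counted as cytosolic. All 37 passed the filter on low counts, which kept 13408 genes.

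RNA was sequenced from 6 libraries, 3 of control cells and 3 of cells given SMIP34 at 20 µM, all collected at 24 h. Every library came from the same line, grown in McCoy's 5A medium with serum, and carried no engineered allele. The labels describe controls as cells in medium, whereas the methods of the study name a vehicle. No label ties the libraries to separate cultures, so p-values measure only the spread between these libraries, which may be technical. PELP1 is a coregulator protein that also takes part in ribosome biogenesis, and the comparison asks which transcripts differ after its inhibition.

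Each aminoacyl-tRNA synthetase joins an amino acid to the transfer RNAs that carry its anticodons, and so supplies the ribosome with charged tRNA. Cytosolic and mitochondrial protein synthesis use separate enzymes for most amino acids, all encoded in the nucleus. Several cytosolic enzymes are held together with the scaffold proteins AIMP1, AIMP2 and EEF1E1 in the multisynthetase complex. The transcription factor ATF4, which is translated when amino acids run short or the endoplasmic reticulum is stressed, is known to raise many cytosolic synthetase genes together with genes of amino acid synthesis and import.

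Library totals lay between 19562711 and 22014835 counts. The 37 genes took 0.477% to 0.479% of all counts in the control libraries and 0.452% to 0.463% in the SMIP34 libraries, so the groups did not overlap. In bulk RNA, a change of transcript per cell and a change in the mix of cells cannot be told apart. All 7 epithelial markers were present, with a summed level of 3221 to 3321 CPM (counts scaled to library size) in control and 3057 to 3067 CPM in SMIP34 libraries. Of the 7 markers 4 were called lower, against 17.2% of all genes tested. Of 5 fibroblast markers only COL1A1 passed the filter, at 2.96 CPM in control and 4.19 CPM in SMIP34 cells. The 5 leukocyte markers summed to at most 0.501 CPM and the 4 endothelial markers to at most 0.876 CPM in any library. The part of these shifts in the synthetase values was not tested.

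Most of the cytosolic synthetase transcripts that differed were lower after SMIP34, by amounts that were small next to the fold limit of the study. Among the 20 cytosolic genes, 10 were lower (CARS, YARS, GARS, AARS, TARS, SARS, NARS, QARS, MARS and IARS), 4 were higher (FARSA, RARS, LARS and VARS) and 6 were not called. Among the 17 mitochondrial genes, 5 were lower (WARS2, SARS2, EARS2 and AARS2 among them), 0 were higher and 12 were not called. A gene was called where the adjusted p was under 0.05, by the quasi-likelihood method of edgeR and the Benjamini-Hochberg procedure across the 13408 genes. Of all genes tested, 34.6% were called, 17.2% lower and 17.4% higher. For the 37 members together the counts were 15 lower and 4 higher. Only VARS also passed an absolute log2 fold change of 0.5, which 3.31% of all genes did with their call. The SMIP34 libraries lay wholly below the control libraries for 16 members and wholly above them for 3, against 21.9% and 22.6% of all genes, or 44.5% without overlap in either direction. The median log2 fold change was -0.069 over the cytosolic and -0.066 over the mitochondrial members, against -0.0022 over all genes tested.

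**Figure D1:**
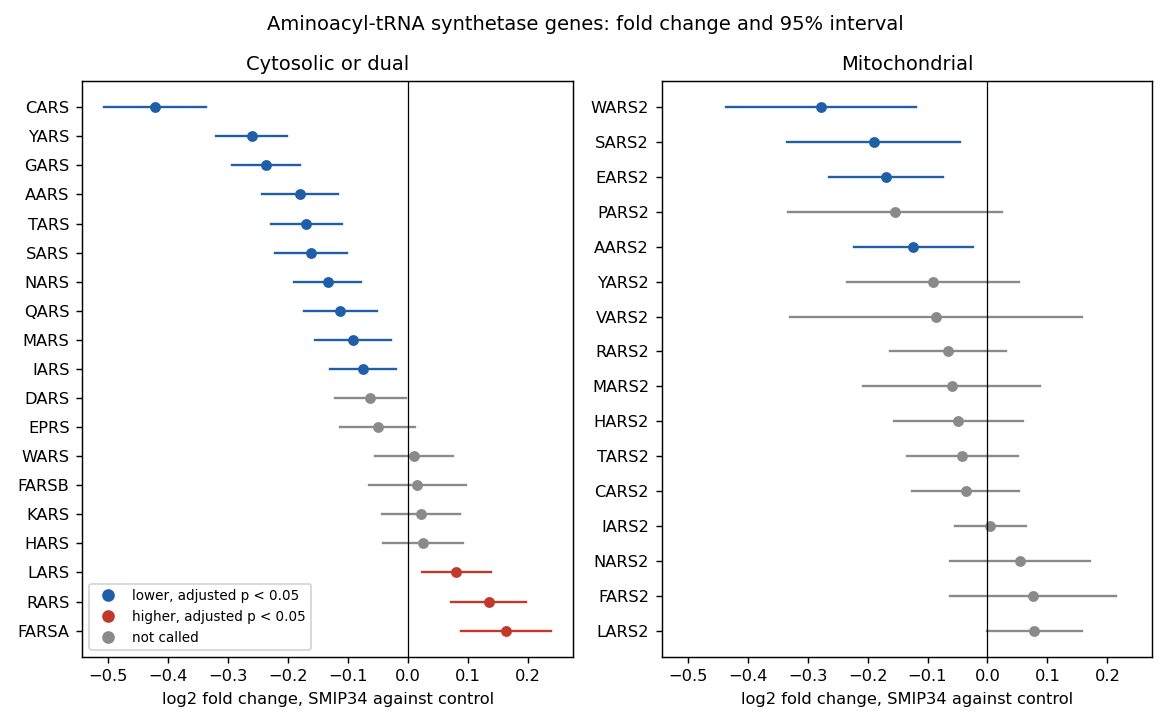
Log2 fold change (SMIP34 against control, horizontal axis) of each synthetase gene, with cytosolic or dual enzymes on the left and mitochondrial enzymes on the right; points are edgeR estimates, bars 95% intervals, and colours the call. CARS lies lowest at -0.42 and FARSA highest at 0.16 of the genes drawn; VARS, at 1.05 with 1 deviating library, and 1 mitochondrial gene are not drawn.

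CARS, the cysteinyl-tRNA synthetase (hg19 chr11:3022152-3078681, minus strand), had the largest decrease of the members. It measured 79.8, 79.9 and 73.9 CPM in the control libraries and 58.0, 58.1 and 58.3 CPM in the SMIP34 libraries. The groups were far apart, and the SMIP34 libraries were nearly equal to one another. CARS fell by 25.3%, a log2 fold change of -0.42 ± 0.041 (SE), with an adjusted p of 9.87e-09 in edgeR. YARS, which charges tyrosine tRNA, measured 207.5, 211.0 and 209.6 CPM in control and 171.9, 176.0 and 176.3 CPM in SMIP34 libraries. Every SMIP34 library was below every control library. Its log2 fold change was -0.26 ± 0.029 (SE), with an adjusted p of 9.69e-08 in edgeR.

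GARS, the glycyl-tRNA synthetase of both compartments, measured 348.5, 344.9 and 346.9 CPM in control and 286.3, 301.5 and 295.3 CPM in SMIP34 libraries. The control libraries were close to one another and the SMIP34 libraries all lay below them. GARS had a log2 fold change of -0.24 ± 0.028 (SE), with an adjusted p of 2.01e-07 in edgeR. AARS, for alanine, measured 189.4, 190.8 and 186.6 CPM against 161.2, 170.2 and 169.0 CPM, and fell by 0.18 on the log2 scale, with an adjusted p of 5.06e-05 in edgeR. TARS, for threonine, measured 241.3, 240.3 and 236.1 CPM against 207.8, 215.6 and 214.7 CPM, and fell by 0.17 on the log2 scale, with an adjusted p of 4.24e-05 in edgeR. In both genes the groups were separated by more than the range within either group.

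The other 5 cytosolic genes that fell were SARS (serine), NARS (asparagine), QARS (glutamine), MARS (methionine) and IARS (isoleucine). Their log2 fold changes ran from -0.16 for SARS to -0.075 for IARS, and in each of them the SMIP34 libraries all lay below the controls. The calls of MARS and IARS were near the threshold, with adjusted p of 0.0235 and 0.0323 in edgeR. Leaving out 1 library ended the call of MARS in 3 of 6 cases and that of IARS in 5 of 6, with log2 fold changes of -0.11 to -0.064 for MARS and -0.082 to -0.061 for IARS. The calls of CARS, YARS, GARS, AARS, TARS, SARS, NARS and QARS held in each of the 18 other fits.

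**Figure D2:**
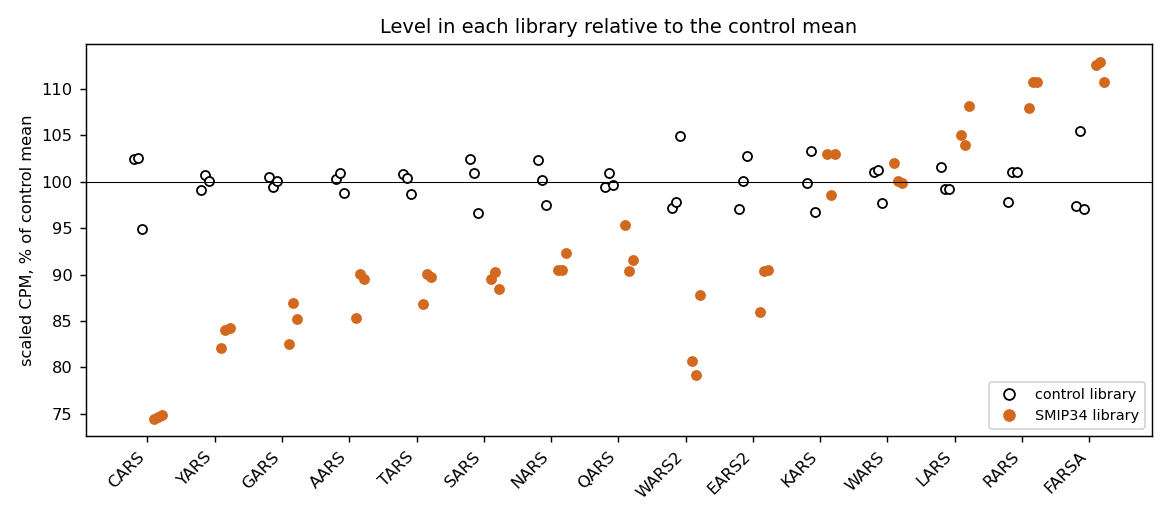
Scaled CPM in each library as a percentage of the control mean (vertical axis) for 15 synthetase genes, with open circles for the 3 control and filled circles for the 3 SMIP34 libraries. From CARS to EARS2 every SMIP34 library lies below the controls, KARS and WARS overlap, and LARS, RARS and FARSA lie above.

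The promoters of the genes that fell are shown because 7 of them hold the same short motif in the window around the start of transcription. The motif searched was TGATGNAA, the core of the amino acid response element that ATF4 dimers are known to bind, on either strand (TTNCATCA on the other), in RefSeq promoter windows (GRCh38.p14) from 250 bases before to 50 bases after the start. A window was found for 30 of the 37 members; AARS2, DARS, LARS, VARS, VARS2 and YARS were among those with none in the table used. In the 30-base stretches below, written 5′ to 3′ on the strand of the gene, the capitals are the letters that match.
CARS (chr11:3057407-3057436, minus strand): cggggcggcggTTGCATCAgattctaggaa
GARS (chr7:30594834-30594863, plus strand): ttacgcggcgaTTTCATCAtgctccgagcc
AARS (chr16:70289675-70289704, minus strand): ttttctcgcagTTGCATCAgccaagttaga
TARS (chr5:33440956-33440985, plus strand): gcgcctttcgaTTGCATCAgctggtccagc
NARS (chr18:57621804-57621833, minus strand): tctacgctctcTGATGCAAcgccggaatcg
MARS (chr12:57488053-57488082, plus strand): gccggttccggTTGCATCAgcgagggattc
IARS (chr9:92293692-92293721, minus strand): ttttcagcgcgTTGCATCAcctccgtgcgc
YARS2 (chr12:32756076-32756105, minus strand): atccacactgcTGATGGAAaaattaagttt

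A match was present in 7 of the 9 cytosolic genes that fell and had a window, and it was absent from the windows of SARS and QARS. It was present in 0 of the 2 cytosolic genes that rose and had a window, in 0 of 5 cytosolic genes not called, and in 1 of 14 mitochondrial genes, YARS2, which was not called. All 7 cytosolic genes with a match are among the 12 synthetases described as ATF4 targets, treated below. With a window, 7 of 10 genes of that list held a match, against 0 of 6 other cytosolic members. The decrease and membership of that list were not separated here. Of all 35116 windows 3.62% held a match, and of the 27305 genes with a window 4.46% had one. These include genes that were not tested here. Of the tested genes with a window, 266 of 9192 (2.89%) had a match. The same core was also counted over all genes tested that had a window, members included. It was present in 59 of 1588 called lower (3.72%), 41 of 1778 called higher (2.31%) and 166 of 5826 not called (2.85%). Of the 28 other genes known as ATF4 targets described below, 21 had a window and 5 of these (23.8%) held a match. Differences between these shares were not tested. A match describes letters in a window and not a bound site. In AARS and YARS2 the match lay far upstream, with its first base 187 and 197 bases before the start, whereas in CARS, MARS, IARS, GARS, NARS and TARS it lay within 33 bases of the start on either side.

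FARSA, RARS and LARS were the 3 cytosolic genes that rose in all SMIP34 libraries. FARSA encodes the catalytic subunit of the phenylalanyl-tRNA synthetase, and measured 98.7, 106.8 and 98.3 CPM in control and 114.0, 114.4 and 112.1 CPM in SMIP34 libraries. Control replicate 2 was the highest control, but it stayed below each SMIP34 library. FARSA had a log2 fold change of 0.16 ± 0.036 (SE), with an adjusted p of 0.000940 in edgeR. FARSB, the other subunit of the same enzyme, measured 69.5, 70.1 and 70.0 CPM against 69.0, 69.7 and 73.2 CPM, with a log2 fold change of 0.016 (95% interval -0.065 to 0.096). The FARSB groups overlapped. The ratio of FARSA to FARSB, in CPM per kb of exon, was 1.75 ± 0.078 in control and 1.94 ± 0.080 in SMIP34 libraries (SD, n = 3), and the groups of ratios did not overlap.

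RARS, for arginine, measured 158.4, 163.7 and 163.7 CPM in control and 174.8, 179.4 and 179.4 CPM in SMIP34 libraries. Its log2 fold change was 0.13 ± 0.030 (SE), with an adjusted p of 0.00104 in edgeR. LARS, for leucine and known as an amino acid sensor upstream of mTORC1, measured 246.3, 240.5 and 240.7 CPM against 254.7, 252.2 and 262.4 CPM. Both genes were higher in each SMIP34 library than in any control. The log2 fold change of LARS was 0.081 ± 0.028 (SE), with an adjusted p of 0.0279 in edgeR. This call was lost in 8 of 18 other fits. It was lost without control replicate 2 and without SMIP34 replicate 1 or 3, where the log2 fold change was at least 0.064. It was also lost with length offsets (log2 fold change 0.038, adjusted p 0.276 in edgeR), with GC offsets (0.038) and with both (0.012, adjusted p 0.756 in edgeR). FARSA and RARS kept their call in every fit.

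Fold changes in these libraries varied with gene length. When all 13408 genes were ordered by exon length and divided into 10 bins of equal size, the median log2 fold change ran from -0.10 (shortest) to 0.12 (longest). FARSA and RARS belonged to the bin of 1715 to 2139 bases, where the median was -0.056, so their direction was opposite to that of their length group. SARS, with 6306 bases of exon the longest member apart from VARS and VARS2, fell although its length group had a median of 0.053. LARS, with 4849 bases, rose as did its length group, which had a median of 0.041. With length fitted, EPRS was also called lower, at -0.096 with an adjusted p of 0.00592 in edgeR, and 2 cytosolic genes rose in place of 4.

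WARS, HARS, KARS, FARSB, EPRS and DARS were the 6 cytosolic genes without a call. KARS, the lysyl-tRNA synthetase of both compartments, measured 184.1, 190.4 and 178.3 CPM in control and 189.8, 181.6 and 189.8 CPM in SMIP34 libraries. The groups overlapped, and the 95% interval of the log2 fold change was -0.044 to 0.087. GARS, the other dual gene, thus had an interval (-0.29 to -0.18) that did not meet that of KARS. EPRS, a single protein that charges both glutamate and proline, measured 254.4, 249.3 and 253.0 CPM against 234.6, 253.8 and 242.0 CPM. SMIP34 replicate 2 was within the control range while the others were below it. Its log2 fold change was -0.051 (95% interval -0.11 to 0.011), with an adjusted p of 0.206 in edgeR.

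WARS, for tryptophan, is strongly induced by interferon gamma in many cell types. It measured 132.1, 132.4 and 127.8 CPM in control and 133.4, 130.9 and 130.6 CPM in SMIP34 libraries. The groups overlapped, with a 95% interval of -0.056 to 0.076 for the log2 fold change. Of 10 listed genes that interferon gamma is known to induce, 8 were tested. Of these 2 rose and 2 fell, against 17.4% higher and 17.2% lower of all genes tested. IRF1 rose by 0.54 on the log2 scale, while PSMB9 fell by 1.10 and PSMB8 by 0.83. PSMB8 and PSMB9 are annotated on several sequences of hg19 and their counts are uncertain.

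HARS and HARS2, for histidine, lie head to head on chromosome 5 with 47 bases between their starts. HARS measured 114.9, 117.1 and 118.2 CPM in control and 117.7, 120.2 and 118.5 CPM in SMIP34 libraries, and HARS2 measured 40.6, 39.2 and 36.5 CPM against 36.2, 37.7 and 38.4 CPM. Both pairs of groups overlapped. The log2 fold changes were 0.025 (95% interval -0.042 to 0.092) for HARS and -0.049 (95% interval -0.16 to 0.059) for HARS2. Reads were counted by strand, and the genes lie on opposite strands.

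VARS and VARS2, for valine, lie in the major histocompatibility region of chromosome 6, which hg19 carries in several haplotype copies. VARS was annotated on 7 sequences and VARS2 on 6, and reads mapping to several places were divided into fractions, so both values are uncertain. VARS measured 2.16, 1.70 and 3.70 CPM in control and 2.96, 10.9 and 1.90 CPM in SMIP34 libraries. Only SMIP34 replicate 2 stood above the controls. The log2 fold change was 1.05, with an adjusted p of 0.0421 in edgeR, and without that library it was -0.050, with an adjusted p of 0.920. VARS2 measured 32.5, 53.4 and 34.9 CPM against 30.5, 39.5 and 44.6 CPM, and its groups overlapped widely. Without VARS and VARS2 the counts were 10 lower and 3 higher of 19 cytosolic genes and 5 lower of 16 mitochondrial genes.

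Of the mitochondrial enzymes, WARS2, for tryptophan (hg19 chr1:119573839-119683295, minus strand), had the largest decrease. It measured 16.6, 16.7 and 17.9 CPM in control and 13.8, 13.5 and 15.0 CPM in SMIP34 libraries. Every SMIP34 library was below every control. The log2 fold change was -0.28 ± 0.077 (SE), with an adjusted p of 0.00639 in edgeR. EARS2, for glutamate, measured 47.1, 48.6 and 49.8 CPM against 41.7, 43.8 and 43.9 CPM, and fell by 0.17 on the log2 scale, with an adjusted p of 0.00572 in edgeR. The EARS2 groups also did not overlap. WARS2 and EARS2 kept their calls in all 18 other fits.

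SARS2, for serine, measured 23.3, 24.1 and 20.4 CPM in control and 19.1, 20.3 and 20.0 CPM in SMIP34 libraries. Its log2 fold change was -0.19, with an adjusted p of 0.0377 in edgeR. AARS2, for alanine, measured 47.3, 50.7 and 51.5 CPM against 44.8, 48.3 and 44.3 CPM, with a log2 fold change of -0.12 and an adjusted p of 0.0491 in edgeR. In AARS2 the groups overlapped, through SMIP34 replicate 2, and in SARS2 the margin was narrow. These calls were lost in 10 (SARS2) and 11 (AARS2) of the 18 other fits. Among the fits that left out 1 library, 5 of 6 lost the call of SARS2 and 4 of 6 that of AARS2. The log2 fold changes in those fits ran from -0.26 to -0.14 for SARS2 and from -0.16 to -0.098 for AARS2.

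The 12 mitochondrial genes without a call had log2 fold changes from -0.15 for PARS2 (proline) to 0.078 for LARS2 (leucine). TARS2 and CARS2 had SMIP34 libraries that all lay below the controls without a call. IARS2, the most abundant mitochondrial synthetase transcript per length, had a log2 fold change of 0.0044 (95% interval -0.055 to 0.064). PARS2, with the largest uncalled decrease, had a 95% interval of -0.33 to 0.024, which includes the value of WARS2.

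Levels were compared between genes in CPM per kb of exon, for the 35 members on a single sequence. The cytosolic genes had a median level of 60.6 in control cells and the mitochondrial ones a median level of 11.9. GARS (126 ± 0.669, SD, n = 3), NARS (123 ± 2.99) and DARS (107 ± 1.76) were the highest. IARS2, at 75.3 ± 2.03, and RARS2, at 28.4 ± 1.37, stood among the cytosolic genes, and 14 of 16 mitochondrial genes were below CARS, the lowest cytosolic gene at 27.6 ± 1.22. PARS2 was the lowest of all at 5.58 ± 0.498. Of the 34 pairs of neighbours in this order, 16 had overlapping control libraries, GARS and NARS among them, so their order was not resolved.

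**Figure D3:**
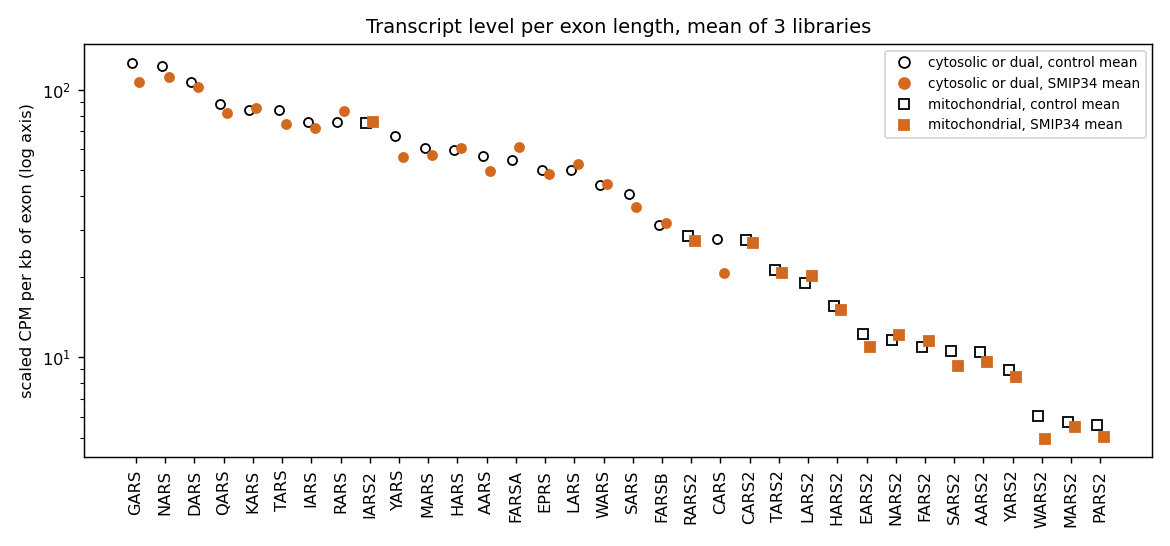
Transcript level in scaled CPM per kb of exon (vertical log axis; mean of 3 libraries) of 34 synthetase genes in order of their control level, with circles for cytosolic or dual and squares for mitochondrial enzymes. Cytosolic genes fill the upper part and IARS2, at 75.3, and RARS2, at 28.4, are the mitochondrial genes above the lowest of them; CARS shows the widest gap between control and SMIP34.

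The balance between the cytosolic and the mitochondrial enzyme for the same amino acid was taken as the ratio of their levels per kb in each library, for 16 pairs. The ratio was lower in every SMIP34 library than in any control for 5 pairs, higher for 3 and overlapping for 8. For levels of single genes, 44.5% of all those tested had groups without overlap, so such separation was common in these libraries. The smallest p that an exact permutation test of 3 libraries against 3 allows is 0.1, and the ratios are given as a description without a test. CARS to CARS2 was 1.01, 1.04 and 0.964 in the control libraries and 0.764, 0.762 and 0.780 in the SMIP34 libraries, so the cytosolic transcript was about level with its partner in control cells and below it in each SMIP34 library. NARS to NARS2 was 10.6 in control and 9.27 in SMIP34 cells, YARS to YARS2 was 7.51 and 6.67, TARS to TARS2 was 3.97 and 3.63, and IARS to IARS2 was 1.01 and 0.956. The opposite was seen for tryptophan, where WARS to WARS2 was 7.33 ± 0.44 in control and 8.95 ± 0.54 in SMIP34 cells, with the difference on the WARS2 side. RARS to RARS2 was 2.67 and 3.07, and EPRS to EARS2 was 4.11 and 4.46. Pairs in which both enzymes fell, AARS with AARS2 and SARS with SARS2, had ratios that overlapped between the groups.

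**Figure D4:**
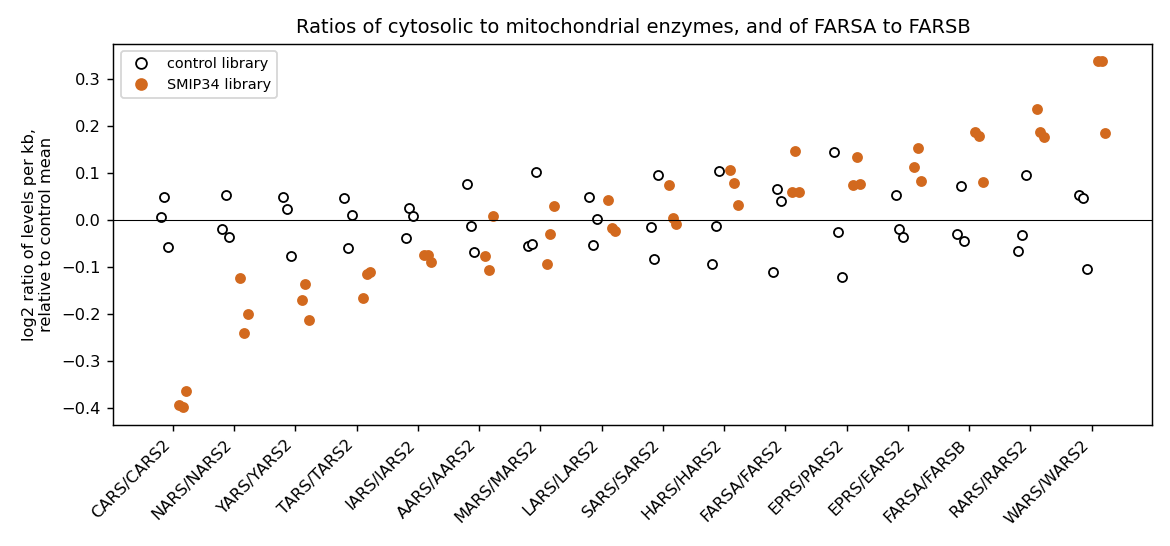
Log2 ratio of levels per kb relative to the control mean (vertical axis) for 15 pairs of cytosolic and mitochondrial enzymes and for FARSA to FARSB, with open circles for control and filled circles for SMIP34 libraries. From CARS to IARS at the left, 5 pairs lie below the controls, and EPRS/EARS2, FARSA/FARSB, RARS/RARS2 and WARS/WARS2 lie above them.

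Counts by complex and by class were read against the 17.2% lower and 17.4% higher of all genes tested. Of the 8 enzymes of the multisynthetase complex, 3 fell (QARS, MARS and IARS), 2 rose (RARS and LARS) and 3 were not called (DARS, EPRS and KARS). Of the 12 cytosolic members outside it, 7 fell and 2 rose (FARSA and VARS). The medians of the log2 fold change were -0.057 inside and -0.15 outside. The scaffold transcripts AIMP1 (log2 fold change -0.035), AIMP2 (-0.13, adjusted p 0.0535 in edgeR) and EEF1E1 (-0.041) were not called. By catalytic class, 5 of 9 cytosolic class I enzymes fell and 3 rose (RARS, LARS and VARS), and 5 of 10 class II enzymes fell and 1 rose. EPRS, which holds both kinds of domain, was left out. In these counts the rise of VARS rested on SMIP34 replicate 2, and LARS lost its call in 8 of 18 other fits.

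Of the 12 cytosolic synthetases described as ATF4 targets, 9 fell, 1 rose (LARS) and 2 were not called (EPRS and WARS), with a median log2 fold change of -0.15. Of the other 8 cytosolic members, 1 fell (QARS), 3 rose (RARS, FARSA and VARS) and 4 were not called, with a median of 0.023. The rise of VARS rested on SMIP34 replicate 2, and without VARS the median was 0.021. The shares over all genes tested were 17.2% lower and 17.4% higher. The ATF4 transcript measured 384.0, 385.0 and 377.9 CPM in control and 303.6, 293.0 and 290.6 CPM in SMIP34 libraries. All SMIP34 libraries lay below the controls. ATF4 had a log2 fold change of -0.37 ± 0.027 (SE), with an adjusted p of 4.72e-11 in edgeR. ATF4 is controlled largely at translation, and its protein was not measured in these files.

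Of 28 other genes known as ATF4 targets 27 were tested. Against 17.2% lower and 17.4% higher of all genes tested, 20 of them fell and 2 rose. Their median log2 fold change was -0.28. The largest decreases were those of CHAC1, a glutathione-degrading enzyme, at -1.18, NUPR1, a stress-induced chromatin protein, at -0.85 and SLC7A11, the cystine importer, at -0.66, with adjusted p of 1.27e-09, 1.24e-08 and 7.84e-12 in edgeR. ATF3, a stress-induced transcription factor, rose by 1.68 and SLC3A2, the partner chain of amino acid transporters, by 0.092. Among these other ATF4 targets 5 decreases passed the fold limit of 0.5, whereas the largest synthetase decrease, that of CARS, did not.

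**Figure D5:**
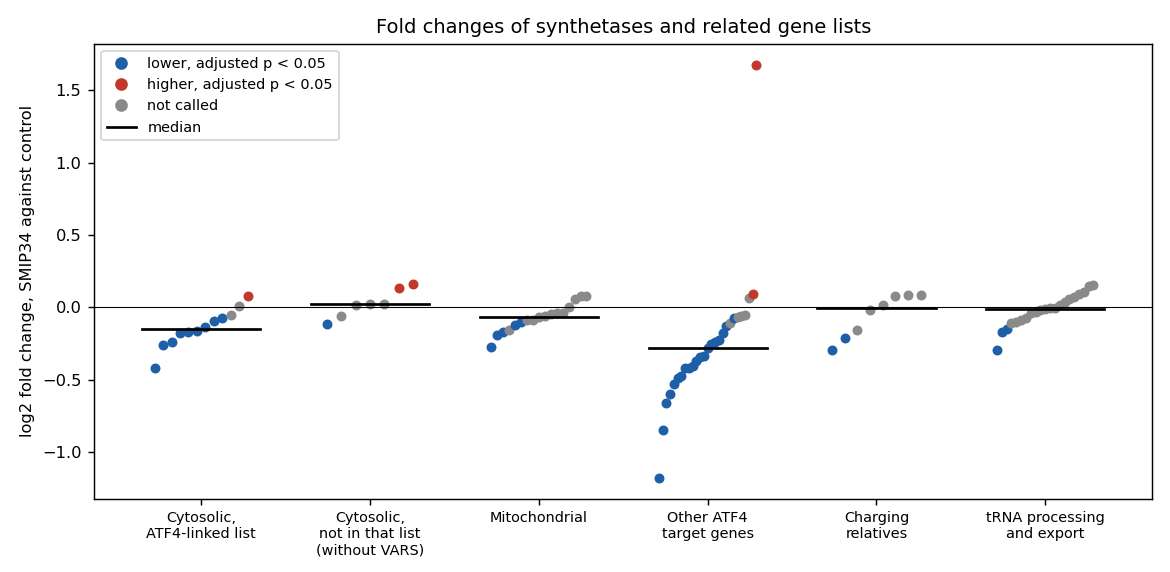
Log2 fold change (vertical axis) of every tested gene in 3 groups of synthetases and 3 related lists, coloured by call, with a bar at each median; VARS is left out of the cytosolic genes outside the ATF4-linked list. The median is -0.15 for the 12 ATF4-linked synthetases, 0.021 for the other 7 cytosolic ones, -0.066 for the mitochondrial ones and -0.28 for the other ATF4 targets.

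Other genes that serve tRNA were read against the 17.2% lower and 17.4% higher of all genes tested. Of 8 relatives and helpers of charging, 2 fell and 0 rose, namely PSTK, the kinase on the route to selenocysteine tRNA, at -0.30 and AARSD1, an editing protein related to AARS, at -0.21 on the log2 scale. Of 21 genes of tRNA processing and export, 3 fell and 0 rose, namely ELAC1 at -0.30, TSEN15 at -0.17 and POP4 at -0.15. XPOT, the exporter of tRNA from the nucleus, had a log2 fold change of -0.037 (95% interval -0.098 to 0.023), with an adjusted p of 0.350 in edgeR. The medians of these lists were -0.0020 and -0.0095, close to the -0.0022 of all genes tested.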

How the data were processed

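The values were estimated counts of reads per gene, which the authors deposited without normalization, and rounding to whole numbers preceded the tests. Per the file headers, featureCounts v1.5.0-p1 summed reads by strand over exons of the UCSC hg19 annotation at a mapping quality of at least 2, and reads at several places were divided into fractions. The submitters' processing notes also name HISAT2, while the methods of the study name other programs, and the labels name library kits of different makers. Of the 37 members, 22 had a fractional count in some library. No column of another sample was present (0). Library totals of 19562711 to 22014835 counts set the precision.

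Genes were filtered with filterByExpr and scaled by TMM. The test of the 3 SMIP34 against the 3 control libraries was quasi-likelihood (edgeR 4.0.16, R 4.3.3), and p-values were adjusted by the Benjamini-Hochberg procedure across all 13408 genes kept. CPM are scaled by the TMM factors. The script was tested on simulated data. Alternatives were DESeq2 1.42.0, limma 3.58.1 voom, the legacy method, 3 scalings, 2 filters, a replicate block, length offsets (lowess, span 0.3) and leaving out each library. Offsets on GC content, on length and GC content, and the omission of VARS and VARS2 were added after seeing the data. Exon length and GC content came from hg19. Promoter windows came from RefSeq by symbol.

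Named with values in every library were members past both thresholds, the 5 largest called changes in each direction per compartment, GARS, KARS, EPRS, FARSA, FARSB, HARS, HARS2, VARS, VARS2 and WARS, and for other lists the 3 largest called changes, the complex scaffolds, XPOT and ATF4. YARS2, PARS2, LARS2, IARS2, TARS2 and CARS2, and the pairs singled out by their ratios, were named after their values were seen. A few genes that fall under this rule are left out here. The members, lists and tests were chosen with earlier results of these data known, and the ATF4 and other lists came from general knowledge.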

Additional observations from a re-analysis of the deposited data

How the results depend on the processing

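Of the 19 called members 12 kept their call in all 18 other fits, 7 lost it in at least 1, and DARS, EPRS and HARS, not called, gained one in some. The number of mitochondrial members lower, 5, was 2 with DESeq2 and with library size only, and 3 with voom, without a filter and with GC offsets, and 2 to 3 when 1 library was left out. The cytosolic members higher, 4, were 2 with length offsets and 2 to 4 when 1 library was left out. The median of the cytosolic members was -0.082 with upper quartile factors, -0.050 with library size only, -0.078 with at least 5 CPM in 3 libraries, -0.089 with length offsets, -0.084 with GC offsets, and -0.083 to -0.054 with 1 library left out. That of the mitochondrial members was -0.080, -0.047 and -0.053 with upper quartile factors, library size only and length offsets, -0.049 with length and GC offsets, and -0.088 to -0.041 with 1 library left out. VARS, at 1.05, ran from -0.050 without SMIP34 replicate 2, which reversed it, to 1.45 without SMIP34 replicate 3. The causes of these shifts were not tested.

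Replicate numbers did not pair the libraries: the correlations of deviations within a number were -0.028, 0.033 and -0.011. With the replicate block the mitochondrial members lower were 3 and 15 members were called. All values rest on 3 libraries a group. For the less abundant mitochondrial genes the intervals span changes as large as those called.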

Other observations

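Other promoter motifs were counted in the same 30 members with a window. The E-box CACGTG, bound by MYC among other factors, was present in 4 of the 30 members, against 8.77% of all genes with a window. Of these 4, 3 were mitochondrial and 1 was a cytosolic gene that fell. The ETS motif CCGGAAG was present in 16 of the 30 members, against 12.2% of all genes with a window. These were 7 of 14 mitochondrial genes, 5 of 9 cytosolic genes that fell, 1 of 2 that rose and 3 of 5 not called. These are counts of letters with no test.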
